A study of Mus musculus with 12 samples.

Results

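Chromosome 6 of the mouse was followed here gene by gene in tumours grown from a lung adenocarcinoma line and from a derivative that resists anti-PD-1, an antibody against an inhibitory receptor of T cells. The genes were taken from a mouse gene table, 1 probe set stood for each gene (the one with the highest mean over the 12 arrays), and a gene had to exceed 3.32, the lower quartile of all values (25%), on 3 or more arrays. Of 992 chromosome 6 genes named on the array, 802 passed, out of 15493 genes tested on all chromosomes, and 190 did not pass. At the edge of the filter, Igbp1b lay outside with a third-highest level of 3.32 and Klre1 inside with 3.33. The chromosome was chosen by measured values, the resistant minus parental differences of its genes under IgG and under anti-PD-1 on the same arrays, so the differences between the lines below are a description and carry no test.

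The tumours were 344SQ lung adenocarcinomas under the skin of female 129sv/ev mice. They came from the parental cells, labelled sensitive, or from anti-PD-1 resistant cells, and each line received either anti-PD-1 or a control IgG, 10 mg/kg per dose, on day 4 and again on day 7, with tumours taken on day 11. The 4 groups were thus parental with IgG, parental with anti-PD-1, resistant with IgG and resistant with anti-PD-1, each with 5 mice per the labels and 3 arrays. Which mice lie behind an array is not given, and a p-value reflects the scatter among the arrays alone, which may be technical. The labels name 1 resistant derivative and do not say whether it is a clone. Whole tumours were measured, so that fewer cells of a type and less RNA per cell cannot be told apart.

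Tumour lines often gain or lose whole chromosomes or arms. A lost copy usually lowers many genes along the lost stretch by a modest and similar amount, while genes used by host cells in the tumour do not follow, and single genes can move much further through their own regulation. Mouse chromosome 6 carries oncogenes and growth factors such as Met and Braf, the homeobox A cluster, a cluster of natural killer cell receptors, several imprinted genes and glycolytic enzymes. Expression arrays measure RNA and not DNA, and the copy number of the chromosome was not tested.

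Promoter windows of some of the genes that stood furthest apart are printed as a description of their letters. Printed are the 250 bases before the start site, from RefSeq on GRCm38.p6, for Cftr, Eva1a, Clec7a, Sftpb, Luc7l2 and Klrc1. Klrc1 is among the 8 genes with the highest mean line difference, and the others are among the 12 with the lowest. Both ranks cover only members whose lines did not overlap under either antibody, passing over predicted genes. Ndnf and Ccnd2 are not shown. Clec7a has 2 listed start sites, and the window before the first listed was used. Cftr lies at chr6:18170437-18170686 on the + strand, Eva1a at chr6:82041378-82041627 (+), Clec7a at chr6:129472780-129473029 (-), Sftpb at chr6:72304360-72304609 (+), Luc7l2 at chr6:38555473-38555722 (+) and Klrc1 at chr6:129678974-129679223 (-). Capitals mark 4 motifs searched on both strands, with overlapping matches counted: the TATA box (TATAAA), the CCAAT box (CCAAT), the GC box (GGGCGG) and the E-box (CACGTG).
Cftr: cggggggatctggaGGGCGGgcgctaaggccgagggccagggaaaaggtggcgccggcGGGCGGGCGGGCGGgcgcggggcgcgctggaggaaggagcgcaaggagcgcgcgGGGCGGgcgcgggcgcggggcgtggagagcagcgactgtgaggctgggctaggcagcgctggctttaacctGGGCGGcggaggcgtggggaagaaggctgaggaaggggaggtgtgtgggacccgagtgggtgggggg
Eva1a: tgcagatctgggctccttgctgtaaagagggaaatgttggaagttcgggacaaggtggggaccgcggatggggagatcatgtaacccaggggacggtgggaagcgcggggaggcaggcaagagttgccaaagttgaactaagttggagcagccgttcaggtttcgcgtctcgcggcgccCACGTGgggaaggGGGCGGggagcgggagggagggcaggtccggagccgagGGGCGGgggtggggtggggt
Clec7a: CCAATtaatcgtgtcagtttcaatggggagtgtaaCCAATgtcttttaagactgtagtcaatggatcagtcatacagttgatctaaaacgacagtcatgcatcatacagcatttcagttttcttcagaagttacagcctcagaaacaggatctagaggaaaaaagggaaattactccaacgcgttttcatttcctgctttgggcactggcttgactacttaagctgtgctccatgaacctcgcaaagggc
Sftpb: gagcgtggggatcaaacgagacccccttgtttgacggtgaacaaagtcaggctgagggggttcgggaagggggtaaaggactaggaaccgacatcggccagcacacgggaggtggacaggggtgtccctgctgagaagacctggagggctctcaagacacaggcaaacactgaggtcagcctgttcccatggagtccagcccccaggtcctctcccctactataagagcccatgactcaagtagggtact
Luc7l2: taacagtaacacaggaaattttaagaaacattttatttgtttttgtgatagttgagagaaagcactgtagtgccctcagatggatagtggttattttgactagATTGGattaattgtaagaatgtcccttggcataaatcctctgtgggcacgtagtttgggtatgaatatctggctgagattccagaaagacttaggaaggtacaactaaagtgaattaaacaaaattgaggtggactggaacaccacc
Klrc1: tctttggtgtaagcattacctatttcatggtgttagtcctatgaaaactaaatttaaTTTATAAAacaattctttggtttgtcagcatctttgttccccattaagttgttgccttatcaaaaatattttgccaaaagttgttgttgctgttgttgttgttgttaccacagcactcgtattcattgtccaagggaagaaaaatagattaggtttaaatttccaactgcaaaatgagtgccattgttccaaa

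The Cftr promoter held 6 GC boxes and 30 CpG dinucleotides, and that of Eva1a held 2 GC boxes, 1 E-box and 18 CpG. Clec7a, a gene of myeloid cells, had 2 CCAAT boxes and 5 CpG, and Luc7l2 had 1 CCAAT box and 1 CpG. No match to the 4 motifs was found in the window of Sftpb, and Klrc1 had 2 overlapping matches to the TATA box. Among 682 members with a promoter in the table, 52.8% had a GC box, against 54.0% of 12317 promoters of genes tested, with chromosome 18 left out. The share with a TATA box was 9.53% against 7.82%, that with a CCAAT box 33.7% against 35.7%, and that with an E-box 5.57% against 7.89%. A match describes these letters only.

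The members as a group read lower in resistant than in parental tumours, by an amount that is small next to the spread of single genes. Each array was given a score: every gene was set as a deviation from its mean over the 12 arrays, and the median deviation of all genes tested was subtracted from that of the 802 members. The parental tumours under IgG scored 0.07, 0.09 and 0.06 on the log2 scale and those under anti-PD-1 0.02, 0.05 and 0.06. The resistant tumours scored -0.06, -0.06 and -0.05 under IgG and -0.07, -0.08 and -0.07 under anti-PD-1. All 6 resistant arrays lay below all 6 parental arrays, and the resistant group under IgG was the most even, with a mean of -0.055 ± 0.001 (SD, n = 3) against 0.073 ± 0.011 (SD, n = 3) for parental tumours under IgG.

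Under IgG, the median difference between resistant and parental tumours was -0.06 over the members and 0.07 over all genes, on the log2 scale. In 451 members (56.2%) the resistant mean was the lower one, against 38.9% of all genes. A gene is called here where limma gave a Benjamini-Hochberg adjusted p under 0.05 over all genes. By that rule 145 members (18.1%) were called lower in resistant tumours, where 7.31% of all genes were called lower, and 24 (2.99%) were called higher, where 8.93% were. The rule that chose the chromosome used the same values, and nothing further is read from these counts. Without the parental IgG array 2 the lower calls came to 86, and to 722 over all genes, where all arrays gave 1133. Without resistant IgG array 1 or 2 they came to 87 each, and to 742 and 634 over all genes.

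Under anti-PD-1, which shares no array with the comparison under IgG, the median was -0.03 over the members and 0.07 over all genes. There 144 members (18.0%) were called lower, against 11.9% of all genes, and 80 (9.98%) higher, against 21.6%. The 3 resistant and 3 parental arrays did not overlap, with the resistant ones lower, in 232 members under IgG (28.9%, 15.2% of all genes) and in 188 under anti-PD-1 (23.4%, 15.8% of all genes). The reverse order held for 100 members under IgG (12.5%, 23.6% of all genes) and for 136 under anti-PD-1 (17.0%, 29.9% of all genes). Both held for 126 members (15.7%), where 8.21% of all genes did, and the reverse order under both antibodies held for 32 members (3.99%), where 13.1% of all genes did. A difference of at least 2-fold was rare: 18 members (2.24%) were that much lower and 11 (1.37%) that much higher under IgG, where 1.61% and 1.72% of all genes were. Under anti-PD-1, 35 members (4.36%) were that much lower and 6 (0.748%) that much higher, where 3.4% and 2.03% of all genes were. The label of lowered genes thus describes a shifted distribution and does not hold for every member.

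How far the members lay below the other genes varied with how bright they were. This split was chosen after the values were seen. The 257 members with a mean level under 5 had a median of 0.09 under IgG, against 0.12 for all genes of that brightness. For the 233 members between 5 and 7 it was -0.05 against 0.06, for the 206 between 7 and 9 it was -0.23 against 0.01, and for the 106 above 9 it was -0.23 against 0.01. The gap between the members and all genes was wider in the brighter bands.

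The 312 members above 7 were 14.7% lower at the median under IgG (-0.23 on the log2 scale), while the 6571 genes of that level on all chromosomes differed by 0.01. Resistant tumours had the lower mean in 253 of them (81.1%), against 47.9% of all such genes. Under anti-PD-1 these members were 7.56% lower at the median, while all such genes stood 7.18% higher. Their array scores were 0.17, 0.15 and 0.12 in parental tumours under IgG and 0.04, 0.12 and 0.09 under anti-PD-1. In resistant tumours they were -0.12, -0.09 and -0.12 under IgG and -0.12, -0.13 and -0.11 under anti-PD-1. The parental scores under anti-PD-1 lay below those under IgG, at the nearest 0.116 against 0.118, while the resistant scores of the 2 antibodies overlapped.

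Relative to all genes, whose medians were above 0, lower values were found along most of the chromosome. When the 802 members were cut in map order into 12 segments of 66 or 67 genes, the median of each of the 12 lay below the median of all genes, under IgG and under anti-PD-1. The segment medians under IgG ran from 0.00 in the first segment, from Gm20559 to Gpr37, to -0.20 in the fifth, from Nt5c3 to 4931417E11Rik. Under anti-PD-1 they ran from 0.070, from Reg3b to Add2, to -0.18, from Tuba8 to Kcna6. The segment from Reg3b to Add2 was thus level with all genes, whose median was 0.073, and 40.3% of its members were lower against 40.5%. Other segment medians under anti-PD-1 were above 0 too, such as 0.047 from Tgfa to Chchd4. With 6 segments 100% lay below the medians of all genes under both antibodies, and with 20 segments 85.0% did. Among the members above 7, the segment from Adipor2 to Cops7a was lowest under both antibodies, at -0.33 under IgG and -0.31 under anti-PD-1.

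A running median over 41 neighbouring members was below the median of all genes in 97.1% of windows under IgG, in 91.6% under anti-PD-1 and in 88.7% under both. The lowest window under IgG (-0.26) was centred on Cd8a and the highest (0.13) on Gm16499. Under anti-PD-1 the lowest (-0.34) was centred on Dppa3 and the highest (0.15) on Snrpg. The gap was therefore not of equal width along the chromosome, and its widest windows under the 2 antibodies lay in different places.

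**Figure D1:**
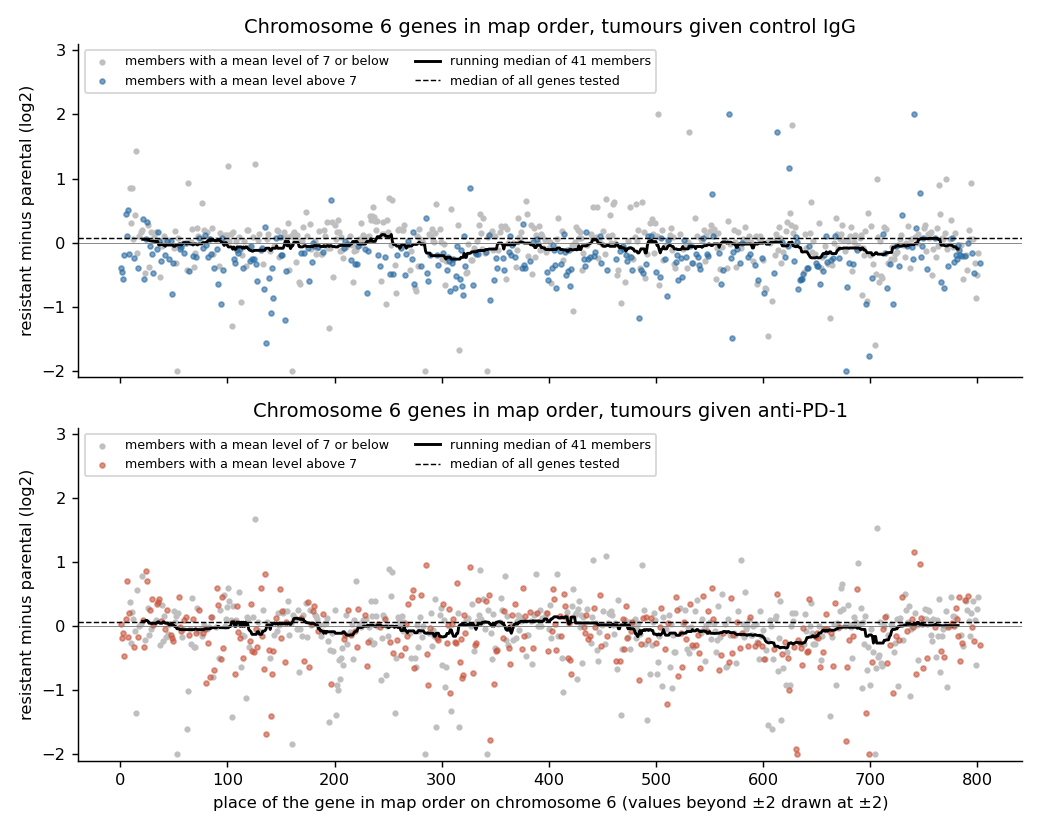
Resistant minus parental difference (log2, vertical axis) of the 802 chromosome 6 genes in map order (horizontal axis, rank along the chromosome) under IgG and under anti-PD-1, with values beyond 2 in either direction drawn at 2. Coloured points have a mean level above 7 and grey points a lower one, the line is the running median over 41 genes and the dashed line the median of all genes. The running median lies below the dashed line in 97.1% of windows under IgG and 91.6% under anti-PD-1.

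Set beside the other 19 chromosomes, chromosome 6 was not alone. Among genes with a mean level above 7, the median difference under IgG was -0.23 on chromosome 6 and on chromosome 15, and the next lowest, on chromosome 5, was -0.05. Under anti-PD-1 it was -0.11 on both. Chromosome 8 stood furthest the other way, with 0.33 under IgG and 0.41 under anti-PD-1, followed by chromosome 4 with 0.13 and 0.23.

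**Figure D2:**
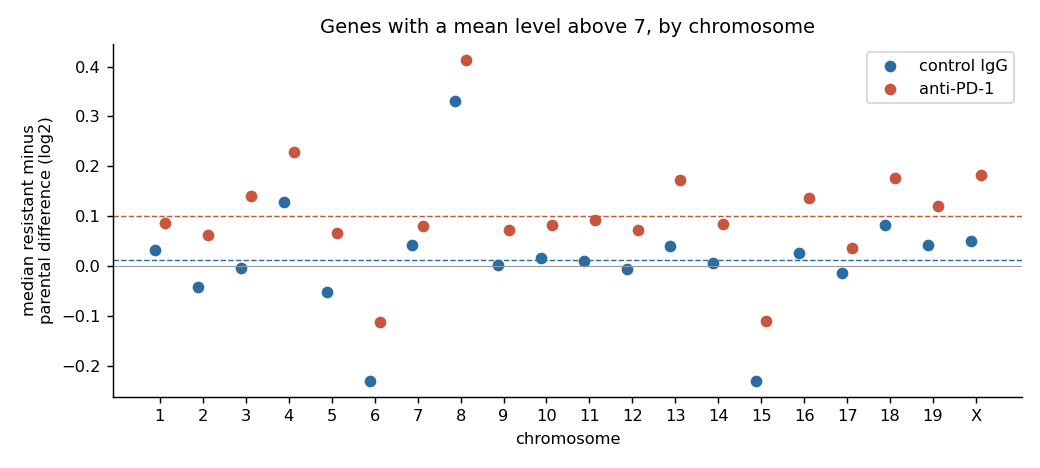
Median resistant minus parental difference (log2) of genes with a mean level above 7, by chromosome, under IgG and under anti-PD-1. Chromosomes 6 and 15 lie lowest, both at -0.23 under IgG, and chromosome 8 highest at 0.33.

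Among the genes that stood lowest were Cftr and Sftpb, of epithelial and lung cells, while the list of 29 epithelial, lung and foregut genes went both ways, with 15 lower and 14 higher under IgG and 13 and 16 under anti-PD-1. Cftr, the chloride channel of airway and other epithelia, read 8.22, 7.62 and 7.57 in parental tumours under IgG and 6.76, 6.56 and 4.86 under anti-PD-1. In resistant tumours it read 2.64, 2.87 and 2.90 under IgG and 3.12, 2.87 and 2.97 under anti-PD-1. All 6 resistant values lie under the filter level of 3.32, at the floor of the array, so the difference of -5.00 ± 0.40 (SE, n = 3) under IgG is a lower limit of its size. Ndnf, a secreted factor first described in neurons, differed by -2.69 ± 0.15 (SE, n = 3) under IgG and -2.49 under anti-PD-1, with parental values of 7.20 to 7.77 and resistant values of 4.69 to 5.11. Sftpb, which encodes a surfactant protein of the lung, spanned 6.85 to 8.33 in parental tumours under IgG and 6.90 to 8.68 under anti-PD-1, and 5.73 to 6.20 in all resistant tumours. The resistant arrays were close together for this gene and the parental ones spread widely.

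Ccnd2, a cyclin that drives entry into S phase, was among the clearest, since its groups were tight. It read 10.16, 10.08 and 9.88 in parental tumours under IgG and 9.88, 9.91 and 9.50 under anti-PD-1, and 7.89, 8.12 and 8.01 in resistant tumours under IgG and 7.98, 7.81 and 8.14 under anti-PD-1. The difference was -2.03 ± 0.13 (SE, n = 3) under IgG and -1.79 under anti-PD-1, and the 6 further probe sets of Ccnd2 gave -1.52 to -2.22 under IgG. The parental and resistant arrays did not overlap for this gene.

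Luc7l2, a splicing factor, read 9.99, 10.14 and 10.05 in parental and 8.47, 7.69 and 9.35 in resistant tumours under IgG. Its difference was -1.56 ± 0.30 (SE, n = 3), with -1.68 under anti-PD-1, and its 7 further probe sets gave -0.43 to -1.67 under IgG. The resistant arrays under IgG spanned more than those of any other group for this gene. Hk2, a hexokinase that starts glycolysis, differed by -0.90 under IgG and -1.78 under anti-PD-1, with parental values of 9.57 to 10.49 and resistant values of 8.26 to 9.12. Eva1a, a membrane protein linked to autophagy, differed by -2.71 and -2.12, and its resistant values lay between 3.37 and 3.96, near the floor. Clec7a, a receptor of myeloid cells for fungal glucans, differed by -1.77 and -2.36, with parental values of 8.39 to 10.38 and resistant values of 6.63 to 8.45. Its groups under IgG did not overlap, as the lowest parental value of 8.39 lay above the highest resistant one of 7.81.

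The other lowest members were Atp6v0e2, a subunit of the proton pump of vesicles (-1.33 under IgG, -1.50 under anti-PD-1), Lncpint, a long non-coding RNA (-1.30, -1.42), Tapbpl, which edits peptides on class I molecules (-1.18, -1.40), and Wnt7a, a Wnt ligand (-0.94, -1.39). The probe set carries this last value: Wnt7a has 2 further probe sets, and they gave 0.06 and 0.11 under IgG. Over all 382 members with further probe sets, 427 of 667 such sets (64.0%) were lower in resistant tumours under IgG and 371 (55.6%) under anti-PD-1. Of 110 called members with another probe set, 18 had one of opposite sign under IgG, and under anti-PD-1 34 of 123 did.

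**Figure D3:**
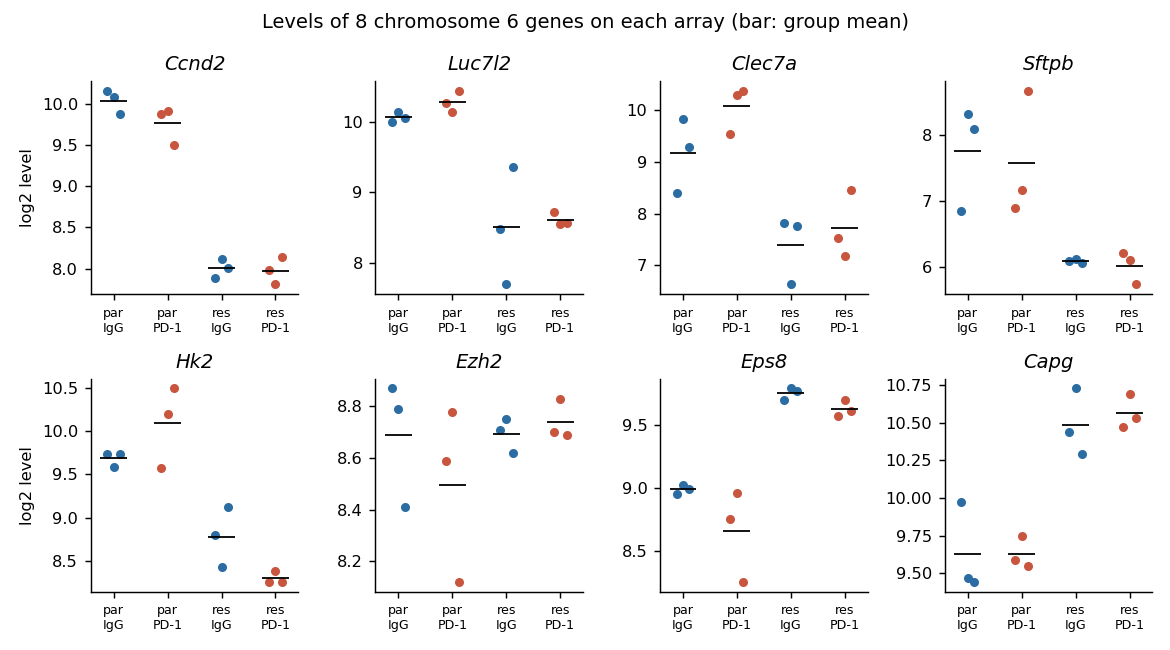
Log2 level on each array (vertical axis, a different range in each panel) of 8 chromosome 6 genes in the 4 groups, with par for parental, res for resistant and PD-1 for the antibody. Points are arrays and bars are group means; the parental and resistant arrays do not overlap for Ccnd2, Luc7l2, Sftpb, Hk2, Eps8 and Capg, and they do for Clec7a and Ezh2.

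Some members stood against the trend. Mgp, a matrix protein that inhibits calcification, was 2.32 ± 0.38 (SE, n = 3) higher in resistant tumours under IgG and 1.16 higher under anti-PD-1. Capg, which caps actin filaments, read 9.44 to 9.97 in all parental tumours and 10.29 to 10.73 in all resistant tumours, and differed by 0.86 and 0.93. Eps8, another regulator of actin, was 0.77 and 0.97 higher, with parental values up to 9.02 and resistant values from 9.57. Klrc1, an inhibitory receptor of natural killer and T cells, was 1.00 higher under IgG, where it was not called, and 1.53 higher under anti-PD-1. Chchd6, of the inner mitochondrial membrane, was 0.68 and 1.09 higher, Eefsec, which brings selenocysteine to the ribosome, 0.55 and 1.03, Scrn1 0.69 and 0.90, and Kbtbd8 0.63 and 0.95, with parental values of 3.03 to 3.48 near the floor.

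Of 9 genes fixed by name, 7 were tested and 2 were not analysed here. Met, the receptor of hepatocyte growth factor, was called lower under IgG, with -0.80, and differed by -0.19 under anti-PD-1, where it was not called. Its other probe set gave -0.54 under IgG and 0.27 under anti-PD-1. Braf, a kinase of the growth factor cascade, differed by -0.19 and -0.18 and was not called. Ezh2, a histone methyltransferase, differed by 0.00 and 0.24, and Cdkn1b, an inhibitor of cyclin-dependent kinases, by -0.06 and -0.16. The other probe set of Cdkn1b, with a mean level of 5.55, gave 0.34 and 0.43. Pparg, a nuclear receptor of fat cells and macrophages, was higher under both antibodies, by 0.76 and 0.59. Cd4 and Cd8a, which mark T cells, differed by 0.03 and -0.29 under IgG and by -0.28 and -0.63 under anti-PD-1, none of them called.

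Gene lists were read by their counts, beside the 18.1% of members and 7.31% of all genes called lower under IgG and the 18.0% and 11.9% under anti-PD-1. Called higher were 2.99% of members and 8.93% of all genes under IgG, and 9.98% and 21.6% under anti-PD-1. Of 37 members in RNA processing, translation and protein turnover, 29 were lower in resistant tumours under IgG with a median of -0.23, and 14 were called lower and 0 higher. Under anti-PD-1 the median was -0.05, and 8 (21.6%) were called in each direction, where 11.9% of all genes were called lower and 21.6% higher. It was 13 lower and 7 higher without the parental IgG array 1 and anti-PD-1 array 3. Ube2h, a ubiquitin-conjugating enzyme, differed by -0.96 under IgG and -0.51 under anti-PD-1. Of 26 oncogenes and growth signalling genes, 9 were called lower (34.6%) and 0 higher under IgG, and 8 lower (30.8%) and 1 higher under anti-PD-1, or 3 higher without the arrays just named. The list went both ways, with 14 lower and 12 higher under IgG and 17 and 9 under anti-PD-1. Creb5, a transcription factor, differed by -0.60 and -0.84. Ptn, of the same list, stood against it, with 1.23 and 1.67. Of 22 cell cycle and DNA repair genes, 3 were called lower under IgG (13.6%, a smaller share than over all members) and 7 under anti-PD-1 (31.8%), and 0 higher, with Ccnd2 the furthest. By sign, 14 were lower and 8 higher under IgG, and 10 lower and 12 higher under anti-PD-1. The medians were -0.11 and 0.02, the latter -0.11 without the parental IgG array 1 and anti-PD-1 array 3. The list also counts Usp18 and Parp12, which interferon induces and which differed most after Ccnd2. Of 8 glycolysis genes, 2 were called lower under IgG and 3 under anti-PD-1, among them Tpi1, an abundant enzyme that differed by -0.40 and -0.41.

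Of 29 epithelial, lung and foregut genes, 5 were called lower under each antibody, a share of 17.2% that is near that of all members. The medians were -0.03 and 0.04, the latter -0.01 without the parental IgG array 1 and anti-PD-1 array 3. Of the 21 mitochondrial subunits and ribosomal proteins, 16 were lower under IgG, with 4 called lower and 1 higher, or 7 and 0 without the same arrays. Under anti-PD-1, 4 of the 21 were lower, with 1 called lower and 8 higher (38.1%, against 21.6% of all genes). Phb2, a scaffold of the inner membrane, was lower under both, by -0.57 and -0.34, and Fmc1, which helps to assemble the ATP synthase, was 0.24 and 0.81 higher. The 8 homeobox A genes, transcription factors of body pattern, had a median of 0.35 under IgG with 0 lower and 3 called higher, or 1 called without the parental IgG array 1 and anti-PD-1 array 3. Under anti-PD-1 their median was 0.08, with 3 lower, 4 higher and 2 called higher. Hoxa5 was called higher under both antibodies, by 0.36 and 0.40, while its other probe set gave 0.21 and -0.34. Hoxa11 was called too, but its mean level of 3.13 lies under the filter level of 3.32, and no size is given for it. Of 8 imprinted genes, Mest and Sgce were higher by 1.19 and 0.85 under IgG, and Herc3 differed by -0.75.

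The lists of host cells are given beside marker genes of the same cells on other chromosomes. Of 24 T and natural killer cell genes on chromosome 6, 14 were lower under IgG and 21 under anti-PD-1, with medians of -0.15 and -0.59. Called lower were 2 under IgG and 7 under anti-PD-1, and 4 and 3 without the parental IgG array 1 and anti-PD-1 array 3. Klrd1, a partner of natural killer receptors, differed by -1.59 and -2.22, ranged from 3.76 to 7.51 in parental tumours and was not called. Beside it, 8 T and natural killer markers on other chromosomes had medians of -0.46 and -0.69, with 7 of 8 lower under each antibody, and array means of 4.14 to 5.15 and 4.55 to 5.63 in parental tumours and 4.12 to 4.25 and 4.06 to 4.65 in resistant ones. Usp18 and Parp12, which interferon induces, are counted in the cell cycle and DNA repair list and not here. They differed by -1.45 and -1.09 under IgG and by -1.54 and -1.40 under anti-PD-1. The part of T and natural killer cells in these values was not tested.

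The 26 fibroblast, vessel and adipose genes had medians of 0.15 under IgG and -0.25 under anti-PD-1. On other chromosomes, 8 fibroblast markers had medians of 0.80 and -0.45, 8 endothelial markers of 0.84 and -0.29 and 6 adipocyte markers of 1.36 and -0.29. The 24 myeloid and B cell genes had medians of 0.11 and -0.24, and 8 macrophage markers of 0.06 and -0.42. The 13 muscle genes had medians of 0.03 and -0.08, while 8 skeletal muscle markers had medians of 0.71 and -2.35, with array means of 7.01 to 11.35, 10.0 to 11.96, 10.0 to 10.77 and 6.64 to 9.72 in the 4 groups in the order of the opening. Without the parental IgG array 1 and anti-PD-1 array 3, the medians of the skeletal muscle markers were -0.54 and -1.94 and those of the fibroblast markers 0.52 and 0.12. Those of the endothelial markers were 0.73 and 0.03, of the adipocyte markers 1.00 and 0.09, and of the macrophage markers -0.10 and -0.13. Each of these lists thus turned its direction under 1 of the antibodies when both arrays were left out. The medians of the chromosome 6 genes without both were 0.15 and -0.11 for fibroblast, vessel and adipose genes and -0.02 and -0.05 for muscle genes, so the muscle list changed sign under IgG. Of epithelial tumour cell markers, 8 had medians of -0.33 and -0.19 and array means of 9.32 to 10.27, and 7 lung lineage markers had medians of -0.14 and -0.17 and array means of 5.45 to 5.91. The epithelial markers of the labelled tissue were thus high on all 12 arrays. The control probe sets at the ends of transcripts also moved with the line: the 3′ minus 5′ level of Gapdh was 0.14 to 0.38 in parental and -0.03 to 0.09 in resistant tumours. Their part in the differences of the members was not tested.

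Anti-PD-1 against IgG within each line was not used to choose the chromosome, and these values were tested. In parental tumours 32 members (3.99%) fell with anti-PD-1 and 5 (0.623%) rose by limma with adjusted p under 0.05, where 2.27% of all genes fell, 1.23% rose and 3.5% did either. Cftr fell by 1.74 on the log2 scale (limma adjusted p = 0.0406), and all 3 parental arrays under anti-PD-1 lay below the 3 under IgG. Gkn2, a secreted protein of the stomach lining, read 5.64, 6.10 and 5.64 under IgG and 4.52, 4.84 and 4.33 under anti-PD-1 and fell by 1.23 (limma adjusted p = 0.0363). Zfp248, a zinc finger gene, fell by 1.03 (limma adjusted p = 0.0366). Rpa3, a subunit of the protein that coats single-stranded DNA, read 8.53, 8.66 and 8.57 under IgG and 7.79, 8.15 and 7.42 under anti-PD-1 and fell by 0.80 (limma adjusted p = 0.028). Tprkb, of a complex that modifies transfer RNA, fell by 0.63 (limma adjusted p = 0.0184), and Ahcyl2 fell by 0.66 (limma adjusted p = 0.0431), although the Ahcyl2 probe set with the largest spread gave 0.11.

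Of the 5 members that rose, Olr1, a receptor of oxidized lipoprotein, went up by 1.06 (limma adjusted p = 0.0373) from 5.61 to 6.28 under IgG to 6.89 to 7.14 under anti-PD-1. Mthfd2, a mitochondrial enzyme of folate metabolism, rose by 0.66 (limma adjusted p = 0.0252). Il17ra, a receptor of interleukin-17 cytokines, rose by 0.64 (limma adjusted p = 0.0275), Sema4f by 0.57 (limma adjusted p = 0.022) and Foxj2 by 0.53 (limma adjusted p = 0.0191). Their arrays did not overlap between the antibodies.

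These calls rest on few arrays. No call of the 37 held whichever parental array was left out: 14, 0 and 0 were made without the parental IgG array 1, 2 or 3, and 44, 38 and 5 were made without the parental anti-PD-1 array 1, 2 or 3. Calls over all genes, 542 with all arrays, moved too. They came to 165, 11 and 9 and to 712, 507 and 57 in the same order. The parental IgG array 1 and anti-PD-1 array 3 stood furthest apart from the other arrays on the first 2 principal components. Without both, 9 members and 100 of all genes were called. At an unadjusted p under 0.05, 199 members (24.8%) passed, against 21.9% of all genes.

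In resistant tumours limma called 0 members and 0 of all genes at an adjusted p under 0.05, and 33 members (4.11%) passed an unadjusted p under 0.05, against 4.76% of all genes. The smallest adjusted p among members was 0.896, and under each alternative fit the count of members stayed at 0. By p, the leading differences below 0 were those of Slc2a3, a glucose transporter, with -0.95, of Cd163, a macrophage scavenger receptor, with -0.94 and of Tfpi2, a protease inhibitor, with -0.63. Slc2a3 read 6.78, 6.15 and 6.65 under IgG and 5.69, 5.30 and 5.75 under anti-PD-1, without overlap, at an unadjusted p of 0.00129 in limma. Met differed by 0.40, St3gal5, a ganglioside synthase, by 0.32 and Ccdc91 by 0.31.

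The 32 members that fell in parental tumours had a median of -0.53 there and of 0.04 in resistant tumours, where 27 of the 32 were positive. Over all genes the median in resistant tumours was 0.03 with 58.6% positive, and over genes above 7, which hold 26 of the 32, it was 0.05 with 71.6% positive, so these values lie near the background. Their resistant minus parental medians were -0.18 under IgG and 0.42 under anti-PD-1, which share the parental arrays with the calls. In 15 members (1.87%) the antibody groups did not overlap in either line and differed in opposite directions, where 1.72% of all genes did so. The test of the difference between the lines in this response was not run.

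**Figure D4:**
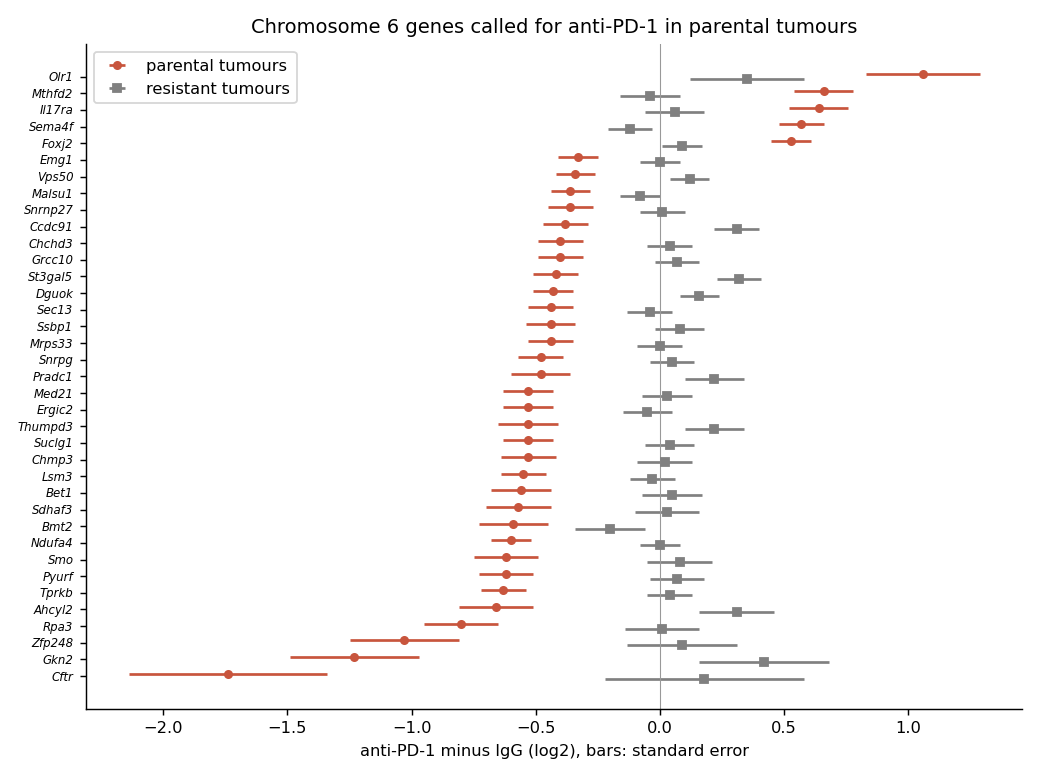
Anti-PD-1 minus IgG difference (log2, horizontal axis, bars for the standard error) of the 37 chromosome 6 genes called in parental tumours, 1 gene per line, in parental (circles) and resistant tumours (squares). Of the 37, 32 were lower and 5 higher in parental tumours, and 27 of the 32 were above 0 in resistant tumours, where 0 genes were called.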

How the data were processed

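Total RNA from whole tumours was hybridized to 12 Affymetrix Mouse 430 2.0 arrays, as the labels' protocols state, with 3 arrays in each group. Log2 values, 1 per probe set and array, were deposited by the authors. Their near-equal quantiles point to a normalization between arrays, whose method was not given in the sources used here. Values ran from 1.62 to 13.88, and 0 columns were left unused. Of 45101 probe sets, 34945 carry 1 gene, 932 carry several, 9160 none and 64 are controls, and 34741 of those with 1 gene matched a RefSeq table of GRCm38.p6, which gave chromosome and order. The precision is limited by the number of arrays.

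Differences were fitted with limma 3.58.1 in R 4.3.3, 1 mean per group over all arrays, with 8 residual degrees of freedom, a median standard error of 0.117, two-sided p-values and Benjamini-Hochberg adjustment over 15493 genes per contrast. The script was tested on simulated data. Named were the 12 lowest and 8 highest members whose lines did not overlap under either antibody, passing over predicted genes, the 3 with the largest size in each list, 9 fixed genes, segment ends and, for anti-PD-1, up to 6 called differences in each direction, or 3 by p where none passed. Not every gene that the rule allows is printed. Other genes, such as Clec2d, were left to the counts, and Dguok was named because both lines moved apart without overlap. The 20 gene lists and the members were chosen with earlier results of these data known. Alternatives covered centring, quantile normalization, the filter, the probe set, the variance model, array weights, the replicate block and arrays left out. Replicate numbers come from the sample titles. Deviations of same-numbered arrays correlated at 0.11, 0.12 and 0.17 for anti-PD-1 against IgG in resistant tumours, and at -0.18 to 0.05 for unlike numbers. The main fit took no pairs in any comparison. The replicate block was an alternative fit that added the number to all 4 groups at once. With it the count of called members in resistant tumours stayed at 0. Figures were drawn with matplotlib 3.10.9.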

Additional observations from a re-analysis of the deposited data

Results flagged for a closer look

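Among the chromosome 6 genes called or named for anti-PD-1, there were 4 in which all anti-PD-1 arrays lay on one side of the IgG arrays in parental tumours and on the other side in resistant tumours, and the difference between the lines was not tested. Over all 802 members 15 did so (1.87%), against 1.72% of all genes, so the share is near the background. Ccdc91 differed by -0.38 in parental and 0.31 in resistant tumours, St3gal5, a ganglioside synthase, by -0.42 and 0.32, and Dguok, a mitochondrial kinase of deoxyguanosine, by -0.43 and 0.16. Cd163, a scavenger receptor of macrophages, went the other way, with 0.67 in parental and -0.94 in resistant tumours. Beside Cd163, 8 macrophage markers on other chromosomes had medians of 0.26 and -0.26 in the same comparisons, and -0.05 in parental tumours without the parental IgG array 1 and anti-PD-1 array 3, and their part in its values was not tested.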

How the results depend on the processing

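The median line difference of the members moved with brightness and centring. Under IgG (-0.06) it was -0.097 with arrays centred on their medians, -0.003 without a filter, -0.163 for genes above the median of all values on 6 arrays and -0.23 for members above 7, and -0.073 to -0.048 with 1 array left out. Under anti-PD-1 (-0.028) it was -0.068 with centring, 0.003 without a filter, -0.103 with the stricter filter, -0.072 with the probe set of largest interquartile range, -0.003 without the immune, stromal and muscle lists and -0.113 above 7, and -0.038 to -0.018 with 1 array left out. Lower calls under IgG came to 86 to 106 with 1 array left out, and under anti-PD-1 to 101 to 157 and to 91 above 7. The last is fewer genes by construction, and the cause of the other shifts was not tested. Calls for anti-PD-1 in parental tumours (37) came to 56 with array weights, 9 without the parental IgG array 1 and anti-PD-1 array 3, and 0 to 44 with 1 array left out. With the replicate block they came to 56, and the lower line calls to 156 and 167. In parental tumours the deviations of same-numbered arrays correlated at 0.64, 0.06 and 0.44, against -0.52 to 0.37 for arrays of unlike number. Whether the numbers mark pairs is not settled by these values, and the main fit took none. Ahcyl2 reversed to 0.11 with the probe set of largest interquartile range. Over the named genes and alternatives, the call for anti-PD-1 in parental tumours was lost 56 times and kept 118 times. The split at level 7 was added after the data were seen.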
